A study of Mus musculus with 11 samples.

Results

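The 10 genes described here encode the antioxidant transcription factor NRF2 (Nfe2l2), its inhibitor Keap1 and 8 enzymes and transporters that NRF2 is known to induce: Nqo1, Srxn1, Gclc, Gclm, Txnrd1, Slc7a11, Gpx2 and Prdx1. They were chosen by name and read from probe sets that the platform annotation assigns to exactly 1 gene symbol. All 10 had such a probe set, out of 19938 genes that did. Prdx1 had 2 and was read from the one with the higher mean, and the other is given beside it.

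Liver RNA was measured on 11 Affymetrix mouse gene arrays, 1 per sample. Every mouse was a male of strain C57/BL6, 8 to 9 weeks old and fed standard chow. The 4 genotypes were wild type (WT, 3 arrays), Nemo KO (3 arrays), Nemo/TRAIL dKO (2 arrays) and Nemo/TNFR1 dKO (3 arrays). Nemo KO livers lack the loxP-flanked gene for NEMO, which regulates the IκB kinase complex, in hepatocytes (NemoΔhepa). Both double knockouts carry the same hepatocyte deletion, and in addition lack the death ligand TRAIL or the tumour necrosis factor receptor TNFR1 in every cell (constitutive TRAIL-/- or TNFR1-/-). They are called TRAIL dKO and TNFR1 dKO from here on. The sources used here give neither the Cre driver nor whether the WT mice carried the loxP sites. The deletion leaves Nemo in the other cells of the liver, and these are part of the RNA. In whole-liver RNA, a change in the number of cells of a type and a change in RNA per cell cannot be told apart.

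NRF2 is a basic leucine zipper factor whose amount is set largely by breakdown of the protein. KEAP1 binds it and presents it to a CUL3 ubiquitin ligase, and oxidants or electrophiles that modify cysteines of KEAP1 let NRF2 escape. NRF2 then pairs with a small MAF protein and binds antioxidant response elements near genes for glutathione synthesis, thioredoxin recycling and quinone and drug metabolism, functions in which the liver is especially active. The arrays measured mRNA only, not NRF2 protein or its binding.

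The promoters of the members are shown because they differ in whether they hold such an element close to the start site. RefSeq (GRCm38.p6) gave 11 windows of 250 bases upstream of a transcription start for 9 of the 10 members, 3 of them for alternative starts of Txnrd1, and none for Gclc. Both strands were searched for the element's core, TGACNNNGC, for the form TGANTCAGC, known from binding sites of small MAF dimers, and for the AP-1 core TGANTCA, which lies inside the second form. The first core was present in 4 member genes, where 10.2% of all 32851 promoter windows of this length held it. The second form was present in Srxn1 and Prdx1, against 1.02% of all windows. The AP-1 core was found in the same 2 genes, 2 matches each, against 6.75% of all windows. The matches to the first core and the second form are shown with up to 20 bases on either side, on the gene's own strand, with the element in capitals; in Gclm, Prdx1 and Txnrd1 it reads on the opposite strand.
Nfe2l2 (chr2:75704875-75704913, minus strand): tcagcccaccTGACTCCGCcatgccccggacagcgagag
Srxn1 (chr2:152105459-152105507, plus strand): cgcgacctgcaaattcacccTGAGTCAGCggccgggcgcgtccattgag
Gclm (chr3:122245403-122245451, plus strand): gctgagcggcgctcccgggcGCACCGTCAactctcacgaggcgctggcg
Prdx1 (chr4:116685446-116685494, plus strand): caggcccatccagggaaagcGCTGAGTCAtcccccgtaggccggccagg
Txnrd1 (chr10:82859094-82859142, plus strand): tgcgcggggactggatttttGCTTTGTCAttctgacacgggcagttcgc
Counted from the start site, the Srxn1 element lies at -45 to -37 and the Nfe2l2 element at -240 to -232. Those of Gclm, Prdx1 and Txnrd1 lie at -134 to -126, -133 to -125 and -92 to -84. The windows of Nqo1, Keap1, Slc7a11 and Gpx2 held none of the 3 sets of letters, which says nothing about elements elsewhere at these genes. Promoters with a match belong to genes whose mRNA rose (Srxn1, Nfe2l2) and to genes with no called difference (Gclm, Prdx1), and the Txnrd1 match is at 1 of its 3 starts.

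Arrays were compared on the log2 scale with a limma model over all 35556 probe sets. A probe set was called at a Benjamini-Hochberg adjusted p below 0.05, and rose or fell is written only for called differences. The array medians lay between 6.26 and 6.32 log2 units. WT replicate 3 stood apart: the summed level of 8 pancreatic acinar markers was 14.94 log2 units there. It was 8.92 to 9.34 on the other 10 arrays. Several results, though not all that lean on WT replicate 3, are also given without it. The code in the array names is shared by WT and Nemo KO and differs in each double knockout, and the array numbers follow genotype. Array order and genotype cannot therefore be told apart. Of the targeted genes, Ikbkg (Nemo) lay between 8.60 and 8.73 in WT, 8.34 and 8.56 in Nemo KO, 8.22 and 8.28 in TRAIL dKO and 8.12 and 8.31 in TNFR1 dKO. It fell in both double knockouts and was not called in Nemo KO (-0.24, adjusted p = 0.106). Tnfsf10 (TRAIL) was not called in TRAIL dKO against WT (-0.65, adjusted p = 0.0749), nor Tnfrsf1a in TNFR1 dKO (0.07, adjusted p = 0.67). Tnfrsf1a rose in Nemo KO (0.35, limma adjusted p = 0.0401) and TRAIL dKO (0.43, adjusted p = 0.0314). In TNFR1 dKO it differed from these by -0.27 and -0.35, neither called (adjusted p = 0.586 and 0.793). Which part of each gene is deleted is not given here, and a probe set outside it checks nothing.

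Against WT, 3 of the 10 members rose in Nemo KO, 2 in TRAIL dKO and 4 in TNFR1 dKO, and none fell. Over all probe sets, 9.29% were called in Nemo KO (6.08% higher, 3.21% lower), 7.55% in TRAIL dKO (4.91% higher, 2.64% lower) and 9.18% in TNFR1 dKO (5.83% higher, 3.35% lower). With 1 probe set per gene the called shares were 12.6%, 10.2% and 12.1%. Nfe2l2 and Srxn1 rose in all 3 Nemo-deficient genotypes, Txnrd1 in Nemo KO and TNFR1 dKO, and Nqo1 in TNFR1 dKO. The median log2 difference over the members was 0.28, 0.22 and 0.22, beside -0.05, -0.05 and -0.04 over all probe sets. In these 3 comparisons the WT arrays are shared.

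**Figure D1:**
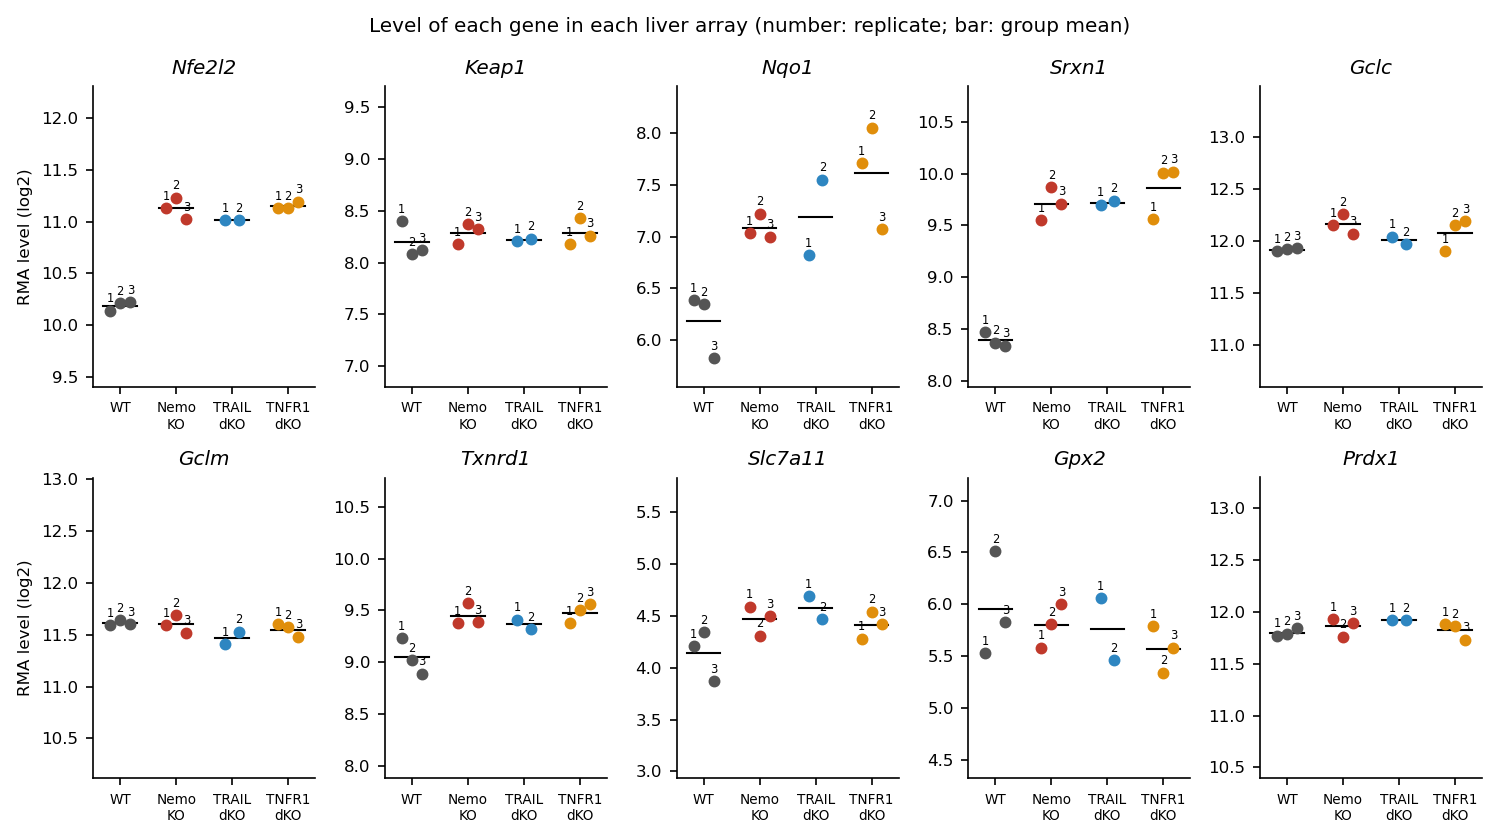
Log2 level of each of the 10 genes on each of the 11 arrays, with points for arrays, bars for group means and 1 panel per gene. Nfe2l2, Srxn1, Nqo1 and Txnrd1 separate all 8 Nemo-deficient arrays from the 3 WT arrays, by a small gap in Txnrd1, while Keap1, Gclm and Gpx2 do not.

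The transcription factor itself changed at the mRNA level. Nfe2l2 measured 10.14, 10.21 and 10.22 in WT, 11.13, 11.23 and 11.02 in Nemo KO, 11.01 and 11.01 in TRAIL dKO, and 11.13, 11.13 and 11.19 in TNFR1 dKO. Every Nemo-deficient array lay at least as high as 11.01, above every WT array. The group means were 10.19 ± 0.04 (SD, n = 3), 11.13 ± 0.10 (n = 3), 11.01 ± 0.00 (n = 2) and 11.15 ± 0.04 (n = 3). Nfe2l2 rose 1.92-fold in Nemo KO (log2 difference 0.94 ± 0.07 SE, 95% interval 0.79 to 1.09, limma adjusted p = 0.000263). The rise was 1.76-fold in TRAIL dKO (0.82 ± 0.07, adjusted p = 0.00069) and 1.95-fold in TNFR1 dKO (0.96 ± 0.07, adjusted p = 0.000121). Its residual spread within groups was 0.06 log2 units, which is larger than that of only 8.3% of probe sets.

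Keap1, the inhibitor, showed no called difference. It measured 8.40, 8.08 and 8.12 in WT, 8.18, 8.37 and 8.32 in Nemo KO, 8.21 and 8.23 in TRAIL dKO, and 8.18, 8.43 and 8.26 in TNFR1 dKO. WT replicate 1 was above all but 1 of the Nemo-deficient arrays and the other two WT arrays were below all of them, so the groups overlap. The difference in Nemo KO was 0.09, with a 95% interval of -0.14 to 0.32 (limma adjusted p = 0.617). It was 0.02 in TRAIL dKO (adjusted p = 0.952) and 0.09 in TNFR1 dKO (adjusted p = 0.647).

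Srxn1 had the largest rise of the 10 genes in each Nemo-deficient genotype. In TNFR1 dKO that of Nqo1 was close (1.42 ± 0.27 SE), so the order there is within error. Srxn1 encodes sulfiredoxin, which repairs over-oxidised peroxiredoxins. Srxn1 measured 8.47, 8.37 and 8.34 in WT, 9.55, 9.87 and 9.71 in Nemo KO, 9.70 and 9.74 in TRAIL dKO, and 9.56, 10.01 and 10.02 in TNFR1 dKO. All 8 Nemo-deficient arrays were above the 3 WT arrays. Srxn1 rose 2.5-fold in Nemo KO (1.32 ± 0.13 SE, limma adjusted p = 0.00056), 2.52-fold in TRAIL dKO (1.33 ± 0.14, adjusted p = 0.00118) and 2.77-fold in TNFR1 dKO (1.47 ± 0.13, adjusted p = 0.000411). Without WT replicate 3 these differences were 1.29, 1.30 and 1.44, and all stayed called.

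Nqo1 encodes NAD(P)H quinone oxidoreductase, which reduces quinones by a pair of electrons and is a much used readout of NRF2 activity. It measured 6.39, 6.35 and 5.83 in WT, 7.03, 7.22 and 7.0 in Nemo KO, 6.82 and 7.55 in TRAIL dKO, and 7.71, 8.05 and 7.07 in TNFR1 dKO. Every Nemo-deficient array was above every WT array, but the spread was wide in 3 of the 4 groups, with SDs of 0.31 in WT, 0.51 in TRAIL dKO and 0.49 in TNFR1 dKO against 0.12 in Nemo KO. Nqo1 rose 2.67-fold in TNFR1 dKO (1.42 ± 0.27 SE, 95% interval 0.82 to 2.02, limma adjusted p = 0.00999), and without WT replicate 3 the difference was 1.24 (adjusted p = 0.0345). In Nemo KO the difference was 0.89 ± 0.27 (adjusted p = 0.0693) and in TRAIL dKO 0.99 ± 0.30 (adjusted p = 0.0809), neither called. The Nemo KO value passes with only WT and Nemo KO in the model (adjusted p = 0.0259) and without TNFR1 dKO replicate 3 (adjusted p = 0.0357). Without WT replicate 3 it is 0.71 (adjusted p = 0.175). The TRAIL dKO value also passes without TNFR1 dKO replicate 3 (adjusted p = 0.0421).

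Txnrd1 encodes cytosolic thioredoxin reductase, which uses NADPH to keep thioredoxin reduced. It measured 9.23, 9.02 and 8.89 in WT, 9.38, 9.57 and 9.39 in Nemo KO, 9.41 and 9.32 in TRAIL dKO, and 9.38, 9.50 and 9.56 in TNFR1 dKO. No Nemo-deficient array reached down to the highest WT array, WT replicate 1, though the gap to it was small. Txnrd1 rose 1.32-fold in Nemo KO (0.40 ± 0.10 SE, limma adjusted p = 0.0326) and 1.35-fold in TNFR1 dKO (0.43 ± 0.10, adjusted p = 0.0241). In TRAIL dKO the difference was 0.32 ± 0.11 (adjusted p = 0.121), and it passes without WT replicate 1 (0.42, adjusted p = 0.049). Both calls depend on single arrays. The Nemo KO call is lost without WT replicate 2 (adjusted p = 0.0877), WT replicate 3 (0.0851) or Nemo KO replicate 1 (0.0574), 2 (0.114) or 3 (0.0715). The TNFR1 dKO call is lost without WT replicate 2 (adjusted p = 0.0745), WT replicate 3 (0.0655) or TNFR1 dKO replicate 2 (0.0783) or 3 (0.0889).

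Gclc and Gclm encode the catalytic and modifier subunits of glutamate-cysteine ligase, the rate-limiting enzyme of glutathione synthesis. Neither was called in any comparison. Gclc measured 11.90, 11.92 and 11.93 in WT, 12.15, 12.26 and 12.07 in Nemo KO, 12.04 and 11.97 in TRAIL dKO, and 11.90, 12.15 and 12.19 in TNFR1 dKO. The Nemo KO and TRAIL dKO arrays were all above WT, whereas TNFR1 dKO replicate 1 was within the WT range. The Gclc difference in Nemo KO was 0.24 ± 0.09 SE, with a 95% interval of 0.05 to 0.43 (limma adjusted p = 0.119). It was 0.09 in TRAIL dKO (adjusted p = 0.672) and 0.16 in TNFR1 dKO (adjusted p = 0.303). Gclm measured 11.59, 11.64 and 11.60 in WT, 11.59, 11.69 and 11.52 in Nemo KO, 11.41 and 11.53 in TRAIL dKO, and 11.60, 11.57 and 11.48 in TNFR1 dKO. The Gclm groups overlap apart from TRAIL dKO, whose 2 arrays were below every WT array. The differences were -0.01 (adjusted p = 0.949), -0.14 (adjusted p = 0.341) and -0.06 (adjusted p = 0.647).

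Slc7a11 encodes the light chain of the cystine/glutamate exchanger that supplies cysteine for glutathione. It measured 4.21, 4.34 and 3.87 in WT, 4.59, 4.31 and 4.50 in Nemo KO, 4.69 and 4.47 in TRAIL dKO, and 4.28, 4.54 and 4.42 in TNFR1 dKO. Its mean fell in the lowest 25% of probe sets, the only member to do so. The differences from WT were 0.33 ± 0.13 SE (limma adjusted p = 0.163), 0.44 ± 0.15 (adjusted p = 0.111) and 0.27 (adjusted p = 0.253), and only the TRAIL dKO arrays all lay above WT. WT replicate 3 was the lowest array, and without it the Nemo KO and TNFR1 dKO differences were 0.19 and 0.14.

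Gpx2 encodes a glutathione peroxidase best known from the gut lining. It measured 5.53, 6.51 and 5.83 in WT, 5.58, 5.81 and 6.0 in Nemo KO, 6.06 and 5.46 in TRAIL dKO, and 5.79, 5.34 and 5.58 in TNFR1 dKO. WT replicate 2 was the highest of all 11 arrays and WT replicate 1 among the lower ones, so WT spanned most of the range. The difference in TNFR1 dKO was -0.39, with a 95% interval of -0.96 to 0.18 (limma adjusted p = 0.409), and in Nemo KO -0.16 with an interval of -0.73 to 0.40 (adjusted p = 0.726). In TRAIL dKO it was -0.20 (adjusted p = 0.75).

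Prdx1 encodes a peroxiredoxin that is a substrate of sulfiredoxin. It measured 11.77, 11.79 and 11.84 in WT, 11.93, 11.76 and 11.89 in Nemo KO, 11.92 and 11.92 in TRAIL dKO, and 11.88, 11.86 and 11.73 in TNFR1 dKO. The TRAIL dKO arrays were above WT and those of the other genotypes overlap it. The difference in Nemo KO was 0.06 (95% interval -0.09 to 0.21, limma adjusted p = 0.605), in TRAIL dKO 0.12 (adjusted p = 0.41) and in TNFR1 dKO 0.02 (adjusted p = 0.877). The other Prdx1 probe set gave 0.05, 0.10 and -0.01 (adjusted p = 0.691, 0.459 and 0.943).

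**Figure D2:**
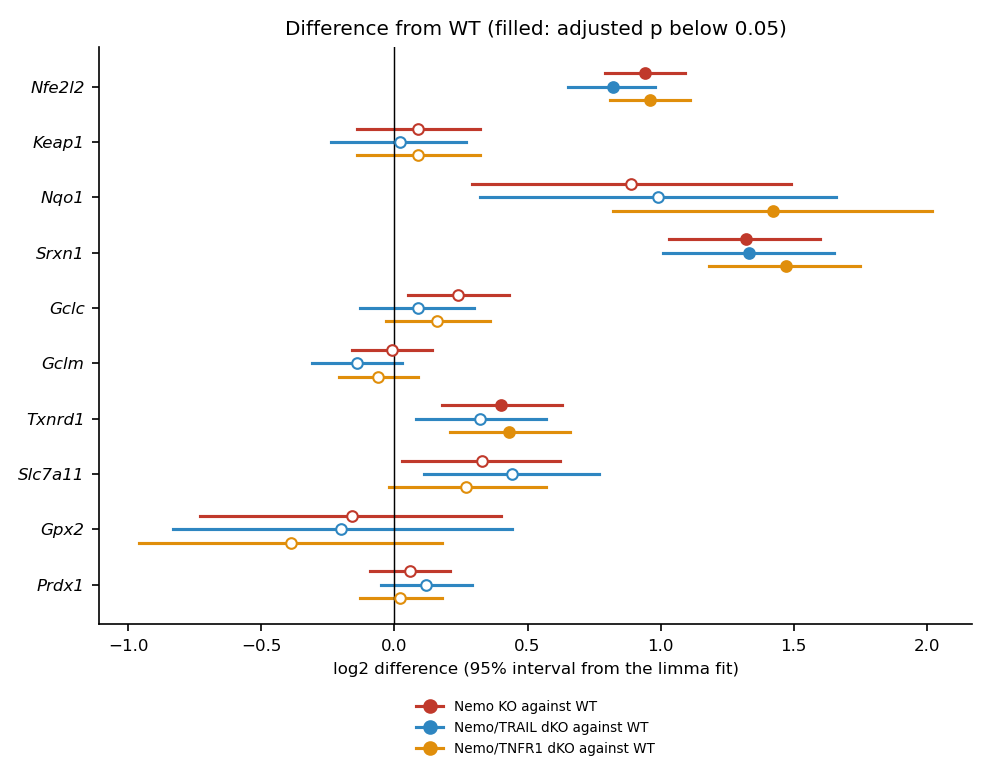
Log2 difference of each gene from WT in the 3 Nemo-deficient genotypes, with 95% intervals; filled points passed an adjusted p below 0.05. The intervals of Srxn1, Nfe2l2, Nqo1 and Txnrd1 exclude 0 in all 3 genotypes, but Nqo1 was called only in TNFR1 dKO and Txnrd1 not in TRAIL dKO. Those of Gclm, Keap1, Prdx1 and Gpx2 include 0.

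The groups did not overlap for 5 of 10 members in Nemo KO against WT, all higher, where 30.3% of all probe sets did not overlap and 12.8% did so with Nemo KO higher. For TRAIL dKO it was 8 of 10, 7 of them higher, beside 35.9% and 14.7%. For TNFR1 dKO it was 4 of 10, all higher, beside 25.5% and 11.6%. Across all 4 genotypes, the moderated F test called Nfe2l2 (adjusted p = 0.000296), Srxn1 (adjusted p = 0.000776) and Nqo1 (adjusted p = 0.0417), where 7.28% of all probe sets were called, and Txnrd1 was outside the threshold (adjusted p = 0.0645). The Nqo1 result was kept in 3 of 11 leave-one-out fits and lost in 8, with adjusted p up to 0.134. It held without TNFR1 dKO replicate 3 and without either TRAIL dKO array.

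Whether the added loss of TRAIL or TNFR1 altered these genes was asked by comparing the Nemo-deficient genotypes with one another. No member was called in any of the 3 comparisons, and none had an unadjusted p below 0.05, which 4.04%, 6.86% and 5.03% of all probe sets had in the order given next. The background was low too: 0.00562% of probe sets were called for TRAIL dKO against Nemo KO, 0.0337% for TNFR1 dKO against Nemo KO and 0.0478% for TNFR1 dKO against TRAIL dKO. The largest difference was that of Nqo1, which was 0.53 ± 0.27 log2 units higher in TNFR1 dKO than in Nemo KO (95% interval -0.07 to 1.12, limma adjusted p = 0.745). TNFR1 dKO replicate 3, at 7.07, lay within the Nemo KO range of 7.0 to 7.22, and the other two arrays lay above it. For Srxn1 the same difference was 0.15 (95% interval -0.14 to 0.44), for Nfe2l2 0.02 (-0.13 to 0.17) and for Txnrd1 0.03 (-0.19 to 0.25).

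TRAIL dKO differed from Nemo KO by 0.01 in Srxn1 (95% interval -0.31 to 0.33), 0.10 in Nqo1 (-0.57 to 0.77), -0.12 in Nfe2l2 (-0.29 to 0.04) and -0.08 in Txnrd1 (-0.33 to 0.17). Nfe2l2 and Gclc did not overlap between these groups, both lower in TRAIL dKO, beside 18.6% of all probe sets. TNFR1 dKO differed from TRAIL dKO by 0.14 in Nfe2l2 (-0.02 to 0.31), 0.43 in Nqo1 (-0.24 to 1.09) and 0.14 in Srxn1 (-0.18 to 0.46). In that comparison Nfe2l2 (higher) and Prdx1 (lower) did not overlap, beside 17.8% of probe sets, and between TNFR1 dKO and Nemo KO no member was free of overlap, beside 12.4%. The order of the Nemo-deficient means thus stayed within error for every member. The intervals for Nqo1 still allow differences of over 1 log2 unit between both double knockouts.

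**Figure D3:**
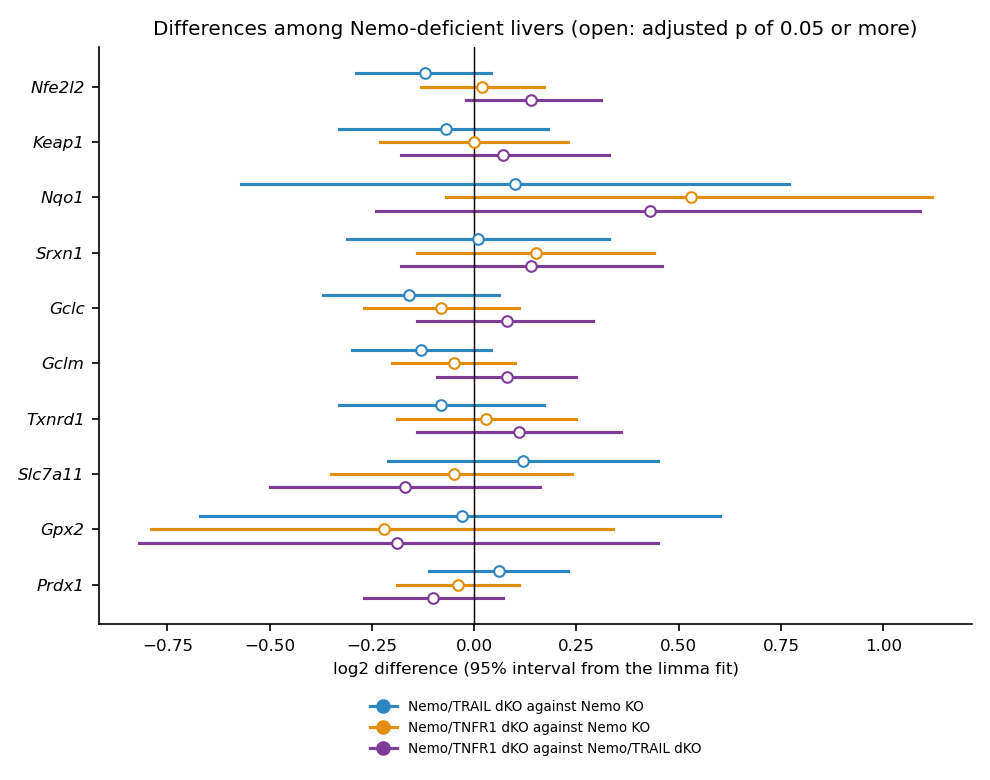
Log2 differences of each gene among the 3 Nemo-deficient genotypes, with 95% intervals; open points have an adjusted p of at least 0.05. All intervals include 0, and those of Nqo1 and Gpx2 are the widest.

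The members differed in how closely replicates matched. Residual SDs were 0.37 log2 units for Nqo1 and 0.35 for Gpx2, above those of 92.6% and 91.6% of probe sets, compared with 0.17 for Srxn1, 0.12 for Txnrd1 and a median of 0.13 over all probe sets. Nqo1 and Srxn1 did not order the TNFR1 dKO arrays alike. Replicate 3 had the lowest Nqo1 (7.07) at a Srxn1 of 10.02, and replicate 1 had the lowest Srxn1 (9.56) at an Nqo1 of 7.71. Replicate 2 was high in both genes (Nqo1 8.05, Srxn1 10.01).

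The wider NRF2 pathway, together with genes of oxidant sources, was described by 8 lists with 110 measured genes. A further 12 entries had no probe set with a single symbol. Of the 110, 32 were called in each comparison with WT, or 29.1%, beside 12.6%, 10.2% and 12.1% of all genes in Nemo KO, TRAIL dKO and TNFR1 dKO: 25 rose and 7 fell in Nemo KO, 24 and 8 in TRAIL dKO, and 26 and 6 in TNFR1 dKO. The lists were chosen with earlier results of these data known, so the excess over all genes is not an independent test. The list of oxidant sources gave 5, 5 and 7 of these calls. The count of 32 moves with single arrays, as does the count over all probe sets. Without WT replicate 3 it was 21, 25 and 26. In Nemo KO it was 21 without WT replicate 1, 18 without Nemo KO replicate 2 and 17 without Nemo KO replicate 3. In TRAIL dKO it was 20 without WT replicate 2 and 11 and 19 without its own replicates 1 and 2, and in TNFR1 dKO 20 and 18 without its own replicates 2 and 3. Over all probe sets the calls fell from 3304 to 1933 without Nemo KO replicate 3, from 2684 to 823 without TRAIL dKO replicate 1 and from 3263 to 1926 without TNFR1 dKO replicate 3. Among the Nemo-deficient genotypes no list gene was called (5, 6 and 4 had an unadjusted p below 0.05).

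**Figure D4:**
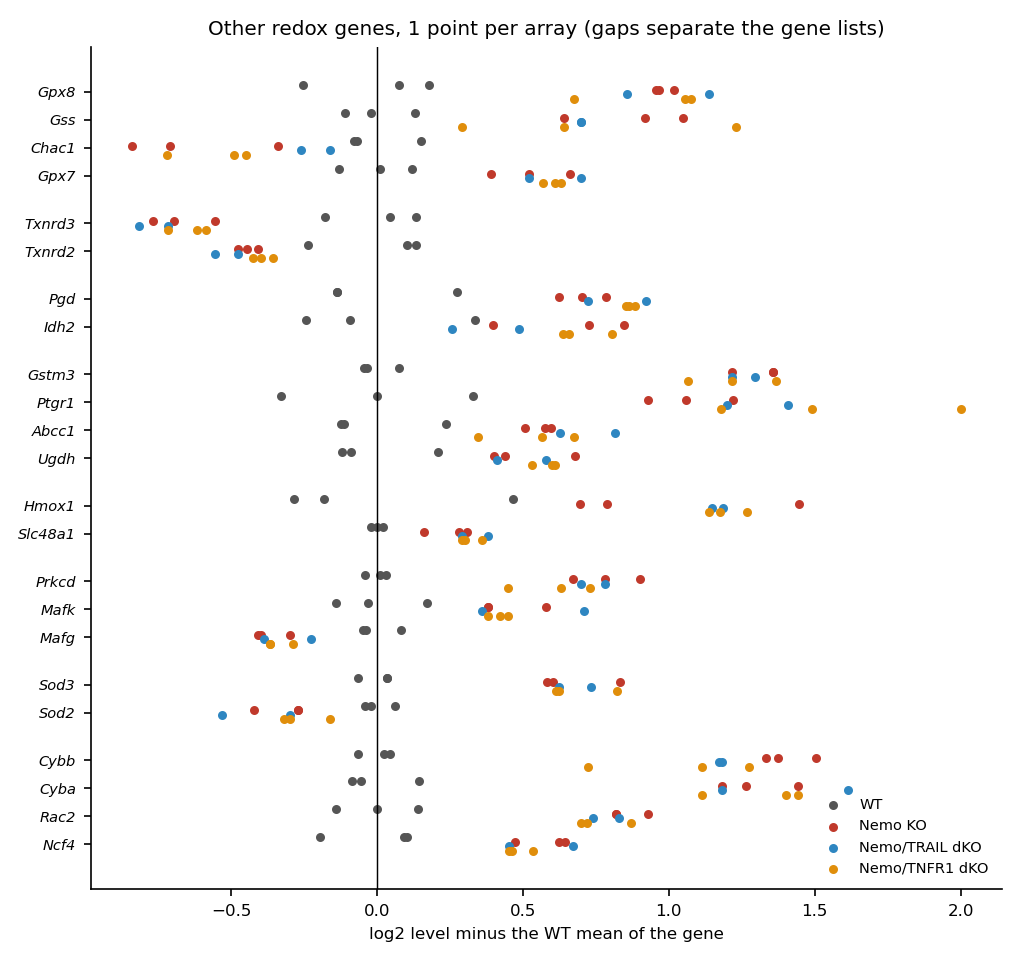
Log2 level minus the WT mean for the named genes of the 8 pathway lists, 1 point per array, coloured by genotype. All 8 Nemo-deficient arrays of Gstm3, Ptgr1, Hmox1 and Cybb lie above the WT arrays, and all 8 of Txnrd3 below them.

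In the list of drug and carbonyl metabolism, 7 of 27 genes rose and 1 fell in Nemo KO, 10 and 1 in TRAIL dKO, and 7 and 0 in TNFR1 dKO. Of the list, 29.6%, 40.7% and 25.9% were called, beside 12.6%, 10.2% and 12.1% of all genes. The medians were 0.18, 0.19 and 0.29. Leaving out WT replicate 3 gave 5, 8 and 7 rises and 1, 1 and 0 falls. The glutathione transferase Gstm3 measured 11.80, 11.92 and 11.81 in WT, 13.06, 13.20 and 13.20 in Nemo KO, 13.06 and 13.14 in TRAIL dKO, and 12.91, 13.21 and 13.06 in TNFR1 dKO. All Nemo-deficient arrays were far above WT, with a rise of 1.31 ± 0.09 SE in Nemo KO (limma adjusted p = 0.000197), 1.25 in TRAIL dKO and 1.22 in TNFR1 dKO. Ptgr1, a reductase of prostaglandins and reactive alkenals, measured 6.44, 6.11 and 5.78 in WT, 7.04, 7.17 and 7.33 in Nemo KO, 7.31 and 7.52 in TRAIL dKO, and 7.29, 8.11 and 7.60 in TNFR1 dKO. It rose by 1.07 ± 0.21 in Nemo KO (adjusted p = 0.0135, lost at 0.0561 without Nemo KO replicate 3), 1.30 in TRAIL dKO (adjusted p = 0.0108) and 1.56 in TNFR1 dKO (adjusted p = 0.0024). The efflux pump Abcc1 rose by 0.56 ± 0.12 in Nemo KO and Ugdh, which makes UDP-glucuronic acid, by 0.51 ± 0.11 (adjusted p = 0.0172 and 0.0173). These calls were kept in 7 and 8 of 11 leave-one-out fits, and that of Ugdh was lost without WT replicate 3.

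In the glutathione list, 6 of 15 genes rose and 2 fell in Nemo KO, 4 and 2 in TRAIL dKO, and 6 and 2 in TNFR1 dKO. Called shares were 53.3%, 40% and 53.3% of the list, beside 12.6%, 10.2% and 12.1% of all genes. With WT replicate 3 left out, 4 rose and none fell in each comparison. The largest called changes in Nemo KO were those of Gpx8 (0.98 ± 0.14 SE, limma adjusted p = 0.00259) and Gpx7 (0.53 ± 0.09, adjusted p = 0.00726), peroxidases of the endoplasmic reticulum, Gss, glutathione synthetase (0.87 ± 0.21, adjusted p = 0.0287), and Chac1, which degrades glutathione (-0.63 ± 0.13, adjusted p = 0.016). Gss measured 9.20, 8.96 and 9.05 in WT and 9.71, 10.12 and 9.99 in Nemo KO. It was 0.70 and 0.72 above WT in TRAIL dKO and TNFR1 dKO, not called there (adjusted p = 0.112 and 0.0613), and its Nemo KO call was kept in 6 of 11 leave-one-out fits, that of Chac1 in 8. Gpx3, the plasma glutathione peroxidase, had a larger but more variable difference. It was 1.21 ± 0.33 in Nemo KO (adjusted p = 0.0502) and 1.24 ± 0.37 in TRAIL dKO (adjusted p = 0.0794), neither called, and it rose by 1.22 ± 0.33 in TNFR1 dKO (adjusted p = 0.0496). Gpx3 was named after its values were seen.

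The thioredoxin list, which leaves out the members Srxn1, Txnrd1 and Prdx1, had no called rise with all arrays in the fit. Of its 14 genes 2 fell in each comparison with WT, or 14.3%, near the 12.6%, 10.2% and 12.1% of all genes called in either direction. Leaving out WT replicate 3 gave 1 rise in TNFR1 dKO, none in Nemo KO or TRAIL dKO, and 2 falls in each. Txnrd3, a thioredoxin reductase best known from testis, measured 7.04, 7.13 and 6.82 in WT, 6.44, 6.3 and 6.23 in Nemo KO, 6.28 and 6.18 in TRAIL dKO, and 6.38, 6.28 and 6.41 in TNFR1 dKO. All Nemo-deficient arrays were below WT, and Txnrd3 fell by 0.67 in Nemo KO (adjusted p = 0.00244), 0.77 in TRAIL dKO and 0.64 in TNFR1 dKO. The mitochondrial reductase Txnrd2 fell by 0.44, 0.51 and 0.39 (Nemo KO adjusted p = 0.0178, called in 7 of 11 fits). In Nemo KO and TNFR1 dKO, then, the cytosolic reductase Txnrd1 rose while Txnrd2 and Txnrd3 fell.

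NADPH, the reductant used by these enzymes, comes from the pentose phosphate pathway among others. In the NADPH list 2 of 9 genes rose in Nemo KO, 1 in TRAIL dKO and 2 in TNFR1 dKO, and none fell. That is 22.2%, 11.1% and 22.2% of the list, beside 12.6%, 10.2% and 12.1% of all genes called. Pgd, 6-phosphogluconate dehydrogenase, rose by 0.70 ± 0.11 SE in Nemo KO (limma adjusted p = 0.00442), 0.82 in TRAIL dKO and 0.87 in TNFR1 dKO. Mitochondrial Idh2 rose by 0.66 ± 0.16 in Nemo KO (adjusted p = 0.0323, called in 7 of 11 fits). The count was 1 in each comparison without WT replicate 3.

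In the haem and iron list 2 of 9 genes rose and none fell in each comparison. That is 22.2% of the list, beside 12.6%, 10.2% and 12.1% of all genes called. Hmox1, haem oxygenase, measured 8.49, 7.84 and 7.74 in WT, 8.81, 9.47 and 8.72 in Nemo KO, 9.17 and 9.21 in TRAIL dKO, and 9.20, 9.16 and 9.29 in TNFR1 dKO. WT replicate 1 was high among the WT arrays but still below every Nemo-deficient array. Hmox1 rose by 0.98 ± 0.22 SE in Nemo KO (limma adjusted p = 0.025, called in 8 of 11 fits), 1.16 in TRAIL dKO and 1.19 in TNFR1 dKO. The haem transporter Slc48a1 rose by 0.25 ± 0.06 in Nemo KO (adjusted p = 0.0371, called in 4 of 11 fits). Without WT replicate 3 the list's count was 0 in Nemo KO, 1 in TRAIL dKO and 2 in TNFR1 dKO.

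Among 21 partners and regulators of NRF2, 2 rose and 1 fell in each comparison. That is 14.3% of the list, near the 12.6%, 10.2% and 12.1% of all genes called. With WT replicate 3 left out, 1 rose in each comparison, and 1, 0 and 1 fell. The called genes of the list include 2 small MAF proteins, partners of NRF2 on DNA, with opposite signs. Mafg measured 9.29, 9.17 and 9.16 in WT, 8.81, 8.91 and 8.80 in Nemo KO, 8.82 and 8.98 in TRAIL dKO, and 8.92, 8.84 and 8.84 in TNFR1 dKO. All Nemo-deficient arrays were below WT, and Mafg fell by 0.37 in Nemo KO (limma adjusted p = 0.0108). Mafk measured 7.43, 7.63 and 7.32 in WT, 7.84, 8.04 and 7.84 in Nemo KO, 7.82 and 8.17 in TRAIL dKO, and 7.84, 7.91 and 7.88 in TNFR1 dKO. All Nemo-deficient arrays were above WT, and Mafk rose by 0.45 ± 0.11 SE in Nemo KO (adjusted p = 0.0344), though in only 4 of 11 leave-one-out fits. Prkcd, a protein kinase C that can phosphorylate NRF2, rose by 0.78 ± 0.09 (adjusted p = 0.000934).

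Of the 4 genes for superoxide and peroxide clearance by other routes, extracellular Sod3 rose by 0.68 ± 0.09 SE in Nemo KO (limma adjusted p = 0.00203) and mitochondrial Sod2, a known target of NF-κB, fell by 0.32 (adjusted p = 0.0417, called in 3 of 11 fits). In TRAIL dKO 1 of the 4 rose and 1 fell, and in TNFR1 dKO 1 rose and none fell. Called shares were thus 50%, 50% and 25% of the list, beside 12.6%, 10.2% and 12.1% of all genes. Without WT replicate 3 the count in Nemo KO was 1. Of 11 genes for NADPH oxidases and other oxidant sources, 5 rose and none fell in Nemo KO, 4 rose and 1 fell in TRAIL dKO, and 6 rose and 1 fell in TNFR1 dKO, with medians of 0.26, 0.44 and 0.49. The gene that fell was Nox4. Called shares of this list were 45.5%, 45.5% and 63.6%, beside the same shares of all genes. Cybb, the catalytic subunit of the phagocyte oxidase, measured 8.90, 8.92 and 8.81 in WT, 10.21, 10.25 and 10.38 in Nemo KO, 10.06 and 10.05 in TRAIL dKO, and 9.60, 9.99 and 10.15 in TNFR1 dKO. All Nemo-deficient arrays were above WT, and Cybb rose by 1.40 ± 0.12 in Nemo KO (adjusted p = 0.000426), 1.18 in TRAIL dKO and 1.04 in TNFR1 dKO. Its partner Cyba rose by 1.29 ± 0.13, Rac2 by 0.86 ± 0.09 and Ncf4 by 0.58 ± 0.10 in Nemo KO (adjusted p = 0.000742, 0.000667 and 0.00653).

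Macrophage, stellate cell and proliferation markers were mostly higher in the Nemo-deficient genotypes. The share of all genes called against WT was 12.6%, 10.2% and 12.1% in Nemo KO, TRAIL dKO and TNFR1 dKO. Of 10 macrophage markers 9 rose in each Nemo-deficient genotype (medians 1.38, 1.27 and 1.13), and their summed level was 11.42 to 11.51 in WT, 12.66 to 12.93 in Nemo KO, 12.72 to 12.83 in TRAIL dKO and 12.47 to 12.91 in TNFR1 dKO. The stellate cell list rose in 9, 8 and 9 of 9 genes, with a summed level of 12.44 to 12.67 in WT and 13.36 to 13.68 on the Nemo-deficient arrays. Of 7 proliferation genes 7, 6 and 7 rose, with a summed level of 8.59 to 9.20 in WT and of at least 10.90 on every Nemo-deficient array. None of 8 hepatocyte markers was called, and their summed level lay between 16.19 and 16.29 on all 11 arrays. That sum rests largely on genes near the top of the array's range, such as Alb (13.81 to 13.93) and Apob (13.07 to 13.12), where the highest value of the table was 14.39, and saturation was not tested. Fah and Hnf4a, which lay lower, differed from WT by -0.19 and 0.04 in Nemo KO, not called (adjusted p = 0.193 and 0.759). Of 6 Kupffer cell markers 3 rose and 1 fell in Nemo KO, 2 and 2 in TRAIL dKO, and 3 and 0 in TNFR1 dKO. Fewer rose without WT replicate 3 (2, 1 and 1). The summed level of the list was 11.48 to 11.75 in WT and at least 11.86 elsewhere. Within that list Marco and Cd5l rose by 0.90 and 0.88 in Nemo KO while Cd163 fell by 1.35. Of 8 T and NK cell markers 1, 1 and 4 rose, or 12.5%, 12.5% and 50%, and 0, 1 and 3 without WT replicate 3. Only the TNFR1 dKO share was clearly above that of all genes. The summed level was 8.42 to 8.56 in WT and at least 8.70 elsewhere. Of 6 neutrophil markers 1, 0 and 1 rose (7.67 to 7.82 in WT, at least 7.84 elsewhere), and 0 in each comparison without WT replicate 3. The cholangiocyte list had 1, 2 and 0 of 7 genes higher, or 14.3%, 28.6% and 0%, with summed levels that overlap WT in TNFR1 dKO. Sinusoidal endothelial markers had none of 8 called in Nemo KO, 2 higher and 1 lower in TRAIL dKO and 1 higher in TNFR1 dKO. None of the 8 acinar markers was called in the comparisons with WT. The part of these cell types in the levels of Nfe2l2, Srxn1, Nqo1, Txnrd1 and the phagocyte oxidase genes was not tested.

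**Figure D5:**
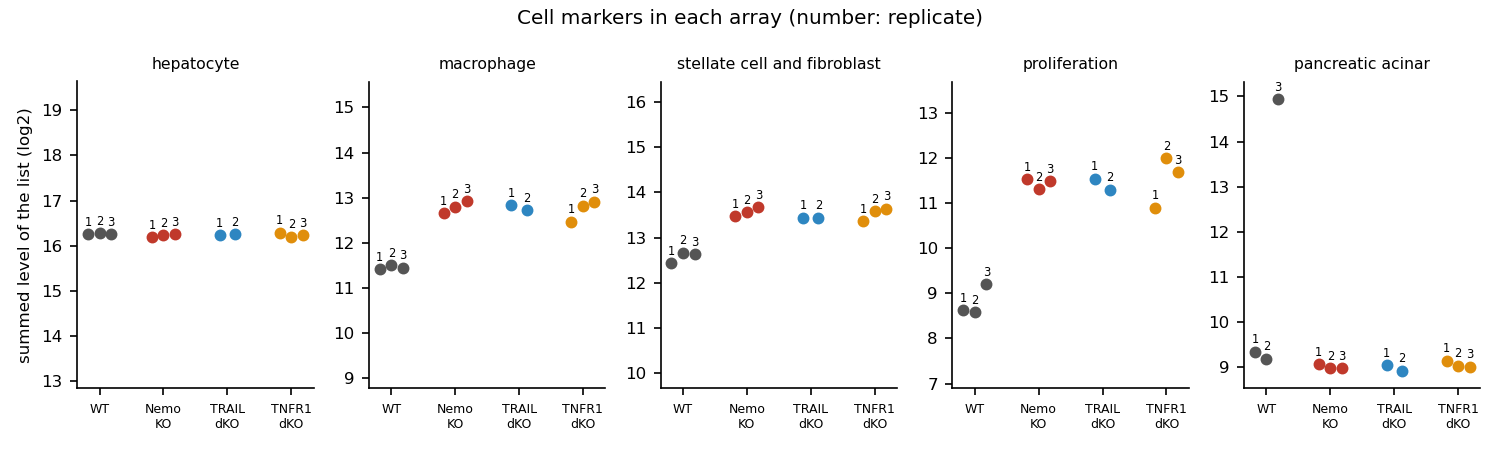
Summed log2 level of 5 of the 10 marker lists on each of the 11 arrays. Of the lists drawn, those of macrophages, stellate cells and proliferation separate the Nemo-deficient arrays from WT, the hepatocyte list does not, and the acinar list is high on WT replicate 3 alone.

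The genes most like Srxn1 over the 11 arrays, by root mean square difference of centred log2 levels among 18709 genes, were Lhfp, Iqgap3, Ncaph and Nid1 (0.12 each) and Myo1f (0.13). Lhfp averaged 7.53 in WT and 8.93, 8.92 and 8.97 in Nemo KO, TRAIL dKO and TNFR1 dKO. Those most like Nqo1 were Acot2 (0.21), Mms22l (0.22), E2f1 (0.22), Pole (0.23) and Abcd2 (0.24), where Acot2 averaged 9.56 in WT and 10.44, 10.74 and 10.75 in the same order. Those most like Gpx2 were Slc25a51 (0.15), Etfbkmt (0.18), Pdgfrl, Kctd15 and Cxcl5 (0.20 each). Genes near Nqo1 and Gpx2 were thus less close than those near Srxn1.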

How the data were processed

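Total liver RNA from 11 mouse samples (100 ng each, RNA integrity above 8.0 per the labels' protocols) was hybridised to Affymetrix mouse gene arrays. The authors deposited log2 expression values of 35556 probe sets, made with RMA per the submitters' processing notes; the sources used here give no version. RMA subtracts background, equalises array distributions and summarises probes, so a shift shared by all genes would not be seen. Depth does not apply to arrays, and their number limits the precision.

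Samples were grouped by labelled genotype. With R 4.3.3 and limma 3.58.1, a model of 1 mean per genotype was fitted across the 11 arrays for every probe set, and variances were moderated by empirical Bayes (7 residual and 2.51 prior degrees of freedom). The 6 two-sided comparisons and an F test were each adjusted by Benjamini-Hochberg over all probe sets. No source says that samples of a group are separate animals, so p-values reflect only how these samples vary, which may be technical. A gene with several single-symbol probe sets was read from the one with the highest mean over all arrays. Summed levels are log2 of the summed linear values of a list.

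The members and the lists, written from general knowledge, were chosen with earlier results of these data known. The text names all 10 members, the targeted genes, up to 4 called genes per pathway list with the largest difference in Nemo KO, and the 5 genes most like Srxn1, Nqo1 and Gpx2. Alternatives tried were quantile normalization, a variance trend, robust moderation, a filter at the 25th percentile of mean level, array weights, a replicate block, only the 2 groups compared, the mean of a gene's probe sets and each array left out. The model was tested on simulated data. Promoter windows came from RefSeq (GRCm38.p6).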

Additional observations from a re-analysis of the deposited data

How the results depend on the processing

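Every count of called members stayed within 1.5 times its reported value. Leaving out each of the 11 arrays in turn gave 2 to 4 called members in Nemo KO, 2 to 3 in TRAIL dKO, 3 to 4 in TNFR1 dKO, 0 in the 3 comparisons among Nemo-deficient genotypes, and 2 to 3 in the F test. The other settings gave 3, 2, 3 to 4, 0 and 3 to 4. The calls of Nfe2l2 and Srxn1 in all 3 comparisons with WT and of Nqo1 in TNFR1 dKO held in all 11 of these fits and under all 8 other settings, with Nqo1 between 1.2 and 1.69 log2 units when an array was left out. The Txnrd1 calls were lost with only the 2 groups compared (adjusted p = 0.0821 in Nemo KO and 0.0816 in TNFR1 dKO). No difference named in the report changed sign among these alternatives for a called member. Leaving out a TRAIL dKO array leaves 1 sample, which is then assumed to vary like the other groups.

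Replicate numbers pair samples only by name: over 15 pairs of same-numbered samples the correlation of deviations lay between -0.12 and 0.04. With the replicate number as a block, 3, 2 and 3 members were called against WT and 0 in the other comparisons, and over all probe sets 2781, 2261 and 2771. Txnrd1 then missed the threshold (adjusted p = 0.0656 in Nemo KO and 0.0522 in TNFR1 dKO), and Nqo1 passed in Nemo KO (adjusted p = 0.0237). List counts without WT replicate 3 and the other Prdx1 probe set were added after seeing the data. With 2 or 3 arrays a group, signal limits Slc7a11 most, and spread limits Nqo1 and Gpx2.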

Other observations

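Both list genes described here lie outside the naming rule and were picked after their values were seen. Nox4, an NADPH oxidase that produces hydrogen peroxide and is known from stellate cells and hepatocytes, measured 9.33, 9.31 and 9.54 in WT, 8.86, 8.98 and 8.59 in Nemo KO, 8.03 and 8.68 in TRAIL dKO, and 8.55, 8.56 and 8.09 in TNFR1 dKO. Every Nemo-deficient array was below WT, while the phagocyte oxidase genes and the stellate markers mostly rose. In TRAIL dKO the oxidase gene Ncf1 and the stellate marker Lrat were not called (limma adjusted p = 0.0765 and 0.0692). Of all probe sets, 30.3%, 35.9% and 25.5% did not overlap WT in Nemo KO, TRAIL dKO and TNFR1 dKO. Nox4 fell by 1.04 in TRAIL dKO (limma adjusted p = 0.0164) and by 1.0 in TNFR1 dKO (adjusted p = 0.0102), and its difference in Nemo KO was -0.58 ± 0.19 SE (adjusted p = 0.0895). The TRAIL dKO call is lost without replicate 1 of that group (adjusted p up to 0.139), and the TNFR1 dKO call was kept in all 11 leave-one-out fits.

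Gsta4, a glutathione transferase that clears lipid peroxidation products such as hydroxynonenal, measured 9.71, 9.99 and 9.57 in WT, 9.82, 10.17 and 10.15 in Nemo KO, 10.36 and 10.46 in TRAIL dKO, and 10.38, 10.45 and 10.34 in TNFR1 dKO. All double knockout arrays were above all Nemo KO arrays. Over all probe sets, 18.6% did not overlap between TRAIL dKO and Nemo KO, and 12.4% between TNFR1 dKO and Nemo KO. Array order follows genotype here too and cannot be told apart from it. Gsta4 rose by 0.66 in TRAIL dKO (adjusted p = 0.0187) and by 0.63 in TNFR1 dKO (adjusted p = 0.0117), and was 0.29 above WT in Nemo KO (adjusted p = 0.179). The differences between the double knockouts and Nemo KO did not pass the test (0.37, adjusted p = 1, and 0.34, adjusted p = 0.65). The TRAIL dKO call was kept in 8 of 11 leave-one-out fits, and was lost without WT replicate 1 or either TRAIL dKO array.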
